A study of Mus musculus with 15 samples.

Results

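The genes described here encode the proteasome, the protease complex that degrades ubiquitin-tagged proteins, and the factors that assemble it. They were chosen by name alone: every probe set whose single gene symbol was Psma, Psmb, Psmc, Psmd, Psme, Psmf or Psmg followed by a number, which gave 85 of 22626 probe sets and 48 of 12393 genes. The family and its division were proposed with results of these arrays known, so differences between its classes are described without a test. Of the 48 genes, 18 encode core subunits (Psma, Psmb), 23 carry the regulatory names (Psmc, Psmd, Psme), 4 are assembly chaperones (Psmg), 1 is the inhibitor Psmf1, and 2, Psmc3ip and Psme3ip1, encode partner proteins named after a subunit and were put in neither class.

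RNA came from primary neural stem cells of 6-week-old female C57/B16 mice (strain as labelled), grown as neurospheres, which are floating clusters of dividing cells. Cultures were left untreated or given CD95L-T4, a trimerised ligand for CD95 (Fas), a receptor that can trigger apoptosis, and RNA was taken 48 h later either from whole cells (total RNA) or from mRNA bound to polysomes, which carry several ribosomes (polysomal RNA). Affymetrix arrays measured 4 control total, 4 CD95L-T4 total, 4 control polysomal and 3 CD95L-T4 polysomal samples, which the titles call biological replicates without saying whether each was a separate culture or animal. P-values therefore cover the spread between these samples, which may be partly technical. A column kit was used for total RNA, phenol-chloroform extraction for the polysomal samples, and only the latter are labelled polyA RNA, so fraction, extraction and this label cannot be told apart. Array medians lay between 6.83 and 6.98 in log2. Of the neural stem and progenitor markers, 7 of 8 were measured, at a median percentile of 93.1 among all probe sets, whereas 5 microglial markers reached at most the 35.6th percentile and 4 endothelial markers at most the 29.7th. Neuronal markers (6 measured) had a median percentile of 23.3, astrocyte markers (5 measured) 36.5 and oligodendrocyte markers (4 measured) 44, but single markers of these types were bright: Olig2 at 96.5, Aldoc at 94.4 and Map2 at 78.3.

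The core particle is a barrel of stacked rings: alpha subunits (Psma) form the outer rings and gate the channel, and beta subunits (Psmb) form the inner rings that hold the proteolytic sites. The regulatory cap recognises ubiquitin chains, unfolds the substrate with a ring of ATPases (Psmc) and feeds it into the barrel, and its non-ATPase subunits (Psmd) form the scaffold, the ubiquitin receptors and a deubiquitinase. Alternative activators (Psme) can take the place of the cap. Dividing cells turn over many cell-cycle regulators through this complex, and the transcription factor encoded by Nfe2l1 raises the subunit genes together through antioxidant response elements when proteasome activity is short.

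Promoter sequence is given because the subunit genes are known to be driven together through this element. RefSeq promoter windows of 300 bases (build GRCm38.p6, from 250 bases before to 50 after the start) were matched for 40 of the 48 genes. The element's core, TGACNNNGC, searched on both strands, was found in 6 of 40 (15%), against 14% of 27025 genes. It was present in 2 of 14 core promoters (Psmb5, Psmb6) and 4 of 20 regulatory promoters (Psmc6, Psmd9, Psmd12, Psme4). The letters CCAAT, also on both strands, were found in 37.5% of the members and 41.1% of all genes. Both core matches are shown with 2 regulatory ones, Psmd9 and Psmd12, whose transcripts moved in opposite directions between the RNA fractions. Each stretch reads along the gene's own strand, with the match in capitals. The Psmd12 match lies on the opposite strand, so its capitals show the reverse complement of the element's core.
Psmb5, chr14:54617999-54618078, minus strand: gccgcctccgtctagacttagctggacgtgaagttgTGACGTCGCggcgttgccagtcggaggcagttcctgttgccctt
Psmb6, chr11:70525277-70525356, plus strand: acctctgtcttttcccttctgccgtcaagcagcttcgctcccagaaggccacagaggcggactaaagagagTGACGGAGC
Psmd9, chr5:123228110-123228189, plus strand: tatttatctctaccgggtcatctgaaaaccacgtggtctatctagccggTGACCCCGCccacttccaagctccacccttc
Psmd12, chr11:107479278-107479357, plus strand: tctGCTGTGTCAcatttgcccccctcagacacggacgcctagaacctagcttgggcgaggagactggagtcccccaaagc
These matches describe letters in the windows and were not measured as binding sites.

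In control cultures, transcripts of most regulatory cap subunits were depleted from polysomal RNA relative to total RNA. Transcripts of the constitutive core mostly lay near 0, and those of several assembly chaperones and of Psmb10 were enriched. The log2 difference, polysomal minus total, had a median of -0.53 over the 23 regulatory genes, -0.07 over the 18 core genes and 0.70 over the 4 Psmg genes, against 0.10 over all genes. By limma, with p-values adjusted over all 22626 probe sets and a threshold of 0.05, 27 of the 48 genes passed, 7 higher and 20 lower. Among all genes 56.7% passed, 33.5% higher and 23.2% lower, so the family's total was near the background. The split within the family was uneven: 16 of 23 regulatory genes were lower and 1 higher, while 3 of 18 core genes were lower and 3 higher. The 2 fractions did not overlap, with polysomal lower, for 17 regulatory and 5 core genes (23.3% of all genes), and with polysomal higher for 1 regulatory and 4 core genes (32.2% of all genes). Shifting all arrays to equal medians turned the core median to 0.02 and the split of calls to 10 higher and 17 lower. Over this shift and the other 3 scalings tried, the regulatory median stayed between -0.54 and -0.43. Because values were scaled between arrays, each difference is relative to the other transcripts on the array, and in bulk RNA fewer cells of a type and less RNA per cell cannot be told apart. The 3' minus 5' signal, a sign of RNA quality, also moved with the fraction: for actin it was 0.28 to 0.57 on the 8 total arrays and 0.59 to 1.03 on the 7 polysomal arrays, and for Gapdh -0.31 to -0.23 and -0.05 to 0.22. Its part in the fraction differences was not tested.

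**Figure D1:**
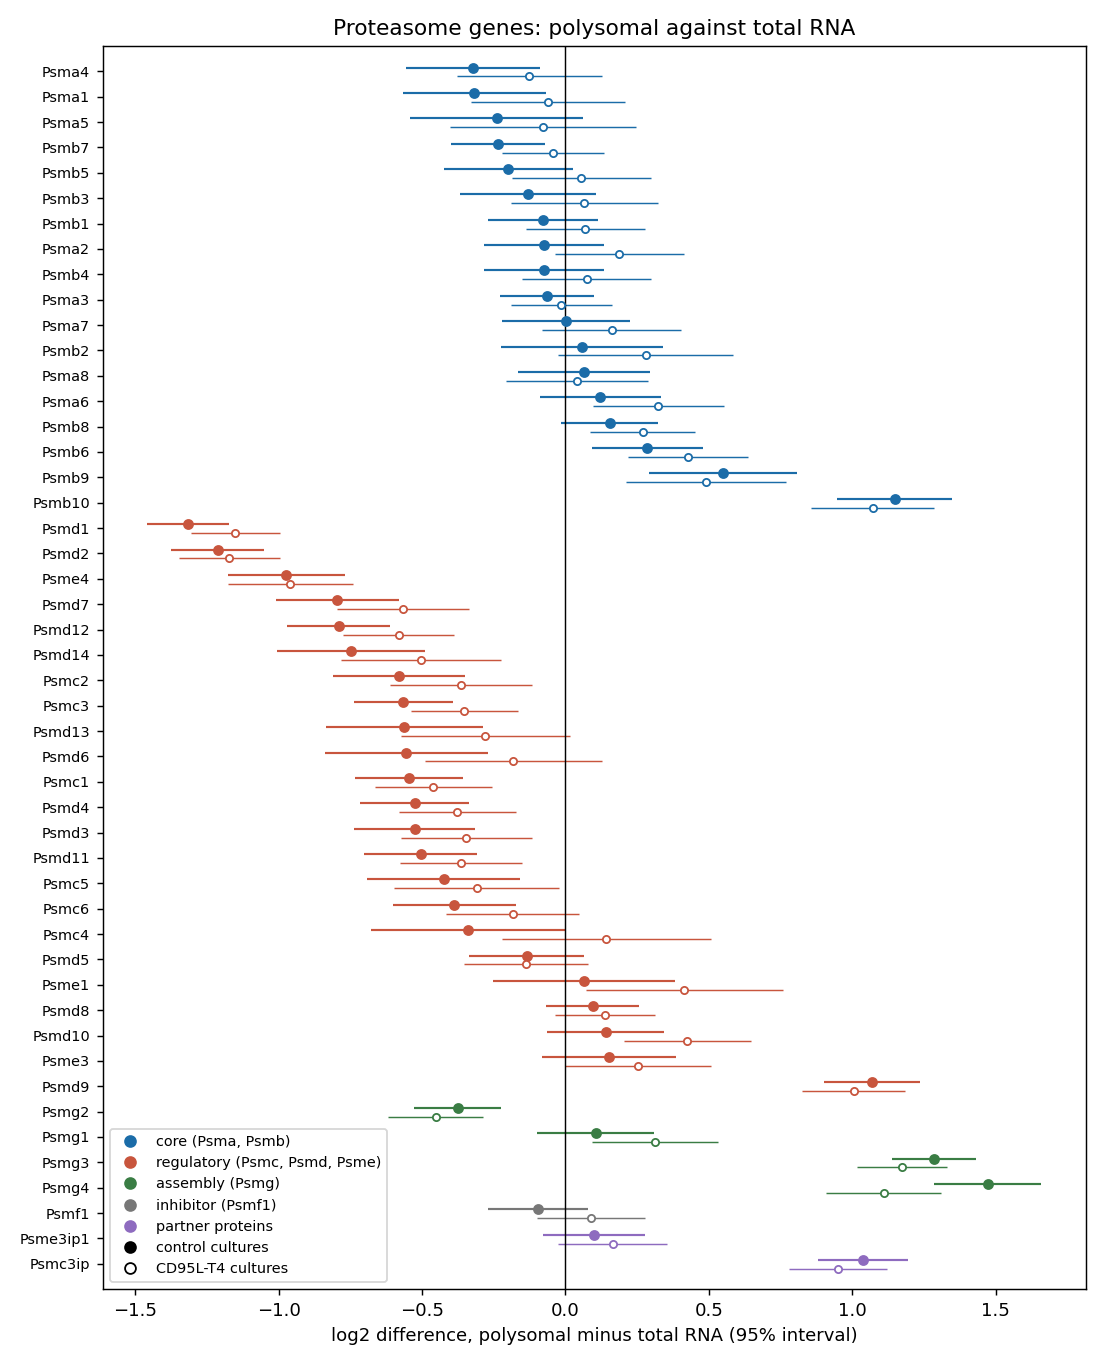
Log2 difference, polysomal minus total RNA, of the 48 genes by class, with 95% intervals from the limma fit; filled points are control and open points CD95L-T4 cultures. Most regulatory genes lie left of 0 down to -1.32 (Psmd1), core genes lie around 0 except Psmb9 and Psmb10, and Psmg3, Psmg4 and Psmd9 lie above 1.

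By the brightest probe set of each gene, the deepest falls belonged to the 2 scaffold subunits of the cap base. Psmd1 read 11.02, 11.13, 10.99 and 11 on the control total arrays and 9.70, 9.76, 9.68 and 9.74 on the control polysomal arrays. Every polysomal array was thus more than 1 log2 unit below every total array, and the difference was -1.32 ± 0.07 (SE), or 2.49-fold (limma adjusted p = 1.16e-10). Psmd2, which docks ubiquitin shuttle proteins, read 11.68, 11.68, 11.62 and 11.70 in total RNA and 10.39, 10.41, 10.44 and 10.59 in polysomal RNA, without overlap. Its difference was -1.21 ± 0.08, or 2.32-fold (limma adjusted p = 7.51e-10).

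Most of the cap followed the same direction. Its 17 structural genes with Psmc or Psmd names were 6 ATPases and 11 non-ATPases. Of these, 15 were lower in control polysomal RNA and none was higher, with a median of -0.56. Among all genes 23.2% were lower and 33.5% higher, which is also the background of the class counts that follow. Sem1, a lid subunit without such a name, went the other way. It was higher by 0.735 (limma adjusted p = 1.85e-07), and the groups did not overlap. Among the ATPases, which unfold substrates, 5 of 6 were lower, with differences from -0.58 (Psmc2) to -0.39 (Psmc6) and a class median of -0.49. Psmc3 read 11.63, 11.64, 11.70 and 11.60 in total RNA and 11.07, 11.06, 11.07 and 11.11 in polysomal RNA, so the groups were far apart and tight (limma adjusted p = 1.12e-05). Psmc4 did not pass with its brightest probe set (-0.34 ± 0.16, limma adjusted p = 0.0807), although the 2 groups did not overlap, and its other probe set did (-0.48, limma adjusted p = 8.77e-04). Other probe sets of called genes did not all follow. For Psmc6 they gave -0.02 and 0.39 (limma adjusted p = 0.899 and 0.0813), the latter with 7.22 to 7.55 in total and 7.60 to 8.08 in polysomal RNA, higher without overlap, and called higher in CD95L-T4 cultures (0.71, limma adjusted p = 0.00576). Psmc1 (0.01), Psmd4 (0.08) and Psmd11 (0.16) each had 1 probe set above 0 that did not pass.

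Of the non-ATPase subunits, 10 of 11 were lower. Psmd12, a lid scaffold subunit whose promoter is printed above, read 11.53, 11.46, 11.55 and 11.46 in total RNA and 10.71, 10.72, 10.65 and 10.76 in polysomal RNA. No polysomal array reached the total arrays, and the difference was -0.79, or 1.73-fold (limma adjusted p = 3.41e-07). Psmd14, the deubiquitinase of the lid, differed by -0.75 and Psmd4, a ubiquitin receptor, by -0.53. Psmd8, also a lid subunit, was the exception: it read 10.89 to 10.96 in total and 10.93 to 11.12 in polysomal RNA, the groups overlapped, and the difference was 0.10 ± 0.08 (limma adjusted p = 0.311).

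Psmd7, a lid subunit that pairs with Psmd14, was the only member with probe sets called in opposite directions in control cultures. The brightest of them was lower by -0.80 ± 0.10 (limma adjusted p = 2.56e-06), with 10.73 to 10.88 in total RNA and 9.98 to 10.07 in polysomal RNA. A second, dimmer one, at the 52.8th percentile of all probe sets, was higher by 0.39 (limma adjusted p = 0.00853), with 6.97 to 7.21 in total and 7.19 to 7.66 in polysomal RNA, where the groups overlapped. Which transcripts the second probe set reports was not tested. Over the family, 27 genes had 1 probe set and 21 had several.

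Not every gene with a regulatory name followed the cap. Psmd5, Psmd9 and Psmd10 encode chaperones that help assemble the cap base and are absent from the finished particle. Psmd9 read 8.04, 8.02, 7.91 and 7.90 in control total RNA and 8.89, 9.13, 9.08 and 9.05 in control polysomal RNA. All 4 polysomal arrays were higher, by 1.07 ± 0.08 or 2.10-fold (limma adjusted p = 3.78e-09). The other probe set of Psmd9 was also called higher, but by 0.44. Psmd5 (-0.14 ± 0.10, limma adjusted p = 0.244) and Psmd10 (0.14 ± 0.10, limma adjusted p = 0.237) did not pass, and their groups overlapped.

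The alternative activators differed among themselves. Psme4, the nuclear activator linked to histone degradation, read 10.55, 10.44, 10.54 and 10.58 in total and 9.43, 9.53, 9.56 and 9.70 in polysomal RNA. The groups were apart by -0.97 ± 0.10, or 1.96-fold (limma adjusted p = 1.13e-07), and its 3 probe sets gave -0.97, -1.46 and -0.82. Psme1, the interferon-inducible activator subunit, read 9.30 to 9.50 in total and 9.19 to 9.75 in polysomal RNA and did not pass (0.07 ± 0.15, limma adjusted p = 0.74). Psme3, its ubiquitin-independent relative, did not pass either (0.15 ± 0.11, limma adjusted p = 0.261). Psme2 was not a member, since its probe set lists 2 genes.

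In the core, the outer alpha ring and the constitutive beta ring had near-equal medians, -0.08 for Psma1 to Psma7 and -0.08 for Psmb1 to Psmb7. Psma4 (-0.32 ± 0.11, limma adjusted p = 0.0193), Psma1 (-0.32 ± 0.12, limma adjusted p = 0.0293) and Psmb7 (-0.24 ± 0.08, limma adjusted p = 0.016) were lower. All 3 calls were lost without control polysomal replicate 1, and that of Psma1 also without control total replicate 1, 2 or 3. On control polysomal replicate 1, Psma4 read 11.18 against 11.48, 11.49 and 11.63 on the other control polysomal arrays and 11.71 to 11.83 in total RNA. Psmb6, which carries the caspase-like site, was higher: 12, 12.03, 11.93 and 11.94 in total RNA and 12.04, 12.23, 12.34 and 12.43 in polysomal RNA. Its groups just failed to overlap and differed by 0.29 ± 0.09 (limma adjusted p = 0.0135). Psmb1 did not pass with its brightest probe set (-0.08), but 1 of its 3 probe sets was called higher, with differences up to 0.405. Closest to 0 were Psma7 (0.00 ± 0.11, limma adjusted p = 0.986) and Psmb2 (0.06 ± 0.13, limma adjusted p = 0.742), whose polysomal arrays spread from 10 to 10.70 around total values of 10.30 to 10.38. Psma8, a testis-specific alpha subunit, lay at the 8.99th percentile of all probe sets with 3.21 to 3.30 in control total RNA.

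The immunoproteasome subunits Psmb8, Psmb9 and Psmb10 replace the catalytic beta subunits in immune and interferon-treated cells and change which peptides are cut. Psmb10 read 8.12, 7.96, 7.87 and 7.94 in control total RNA and 9.18, 9.15, 9.10 and 9.05 in control polysomal RNA. The groups were about 1 log2 unit apart, with a difference of 1.15 ± 0.10, or 2.22-fold (limma adjusted p = 1.31e-08). Psmb9 was also higher, by 0.55 ± 0.12 (limma adjusted p = 9.37e-04), with 5.39 to 5.67 in total and 5.74, 6.19, 6.24 and 6.19 in polysomal RNA. Psmb8 did not pass (0.16 ± 0.08, limma adjusted p = 0.112). Psmb8 and Psmb9 were dim, at percentiles 20.9 and 39.1. Among 8 measured genes of antigen processing and the interferon gamma response, 1 was higher in control polysomal RNA (Irf1, 0.57) and 6 were lower (33.5% and 23.2% of all genes), among them Erap1 (-1.23), H2-K1 (-0.88) and B2m (-0.72).

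The Psmg genes encode chaperones that build the alpha ring as 2 pairs. In the pair Psmg3 and Psmg4, both read far higher in polysomal than in total RNA. Psmg3 read 9.15, 9.08, 9.02 and 8.95 in control total and 10.26, 10.35, 10.40 and 10.33 in control polysomal RNA, a difference of 1.29 ± 0.07 or 2.44-fold (limma adjusted p = 1.6e-10). Psmg4 read 8.94, 8.91, 8.77 and 8.73 in total and 10.41, 10.31, 10.21 and 10.31 in polysomal RNA, the largest rise in the family at 1.47 ± 0.09 or 2.78-fold (limma adjusted p = 4.28e-10). The other pair did not share this. Psmg2 was lower (-0.38 ± 0.07, limma adjusted p = 2.32e-04; 10.11 to 10.21 in total and 9.67 to 9.98 in polysomal RNA), and Psmg1 did not pass (0.11 ± 0.10, limma adjusted p = 0.375). Psmf1, an inhibitor of the core particle, did not pass with its brightest probe set (-0.10 ± 0.08, limma adjusted p = 0.35). However, 1 of its 4 probe sets was called higher, with differences up to 0.255. Psmc3ip, a meiotic recombination factor that is no proteasome subunit, was higher by 1.04 ± 0.08 (limma adjusted p = 2.78e-09), and Psme3ip1 did not pass (0.10, limma adjusted p = 0.331).

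**Figure D2:**
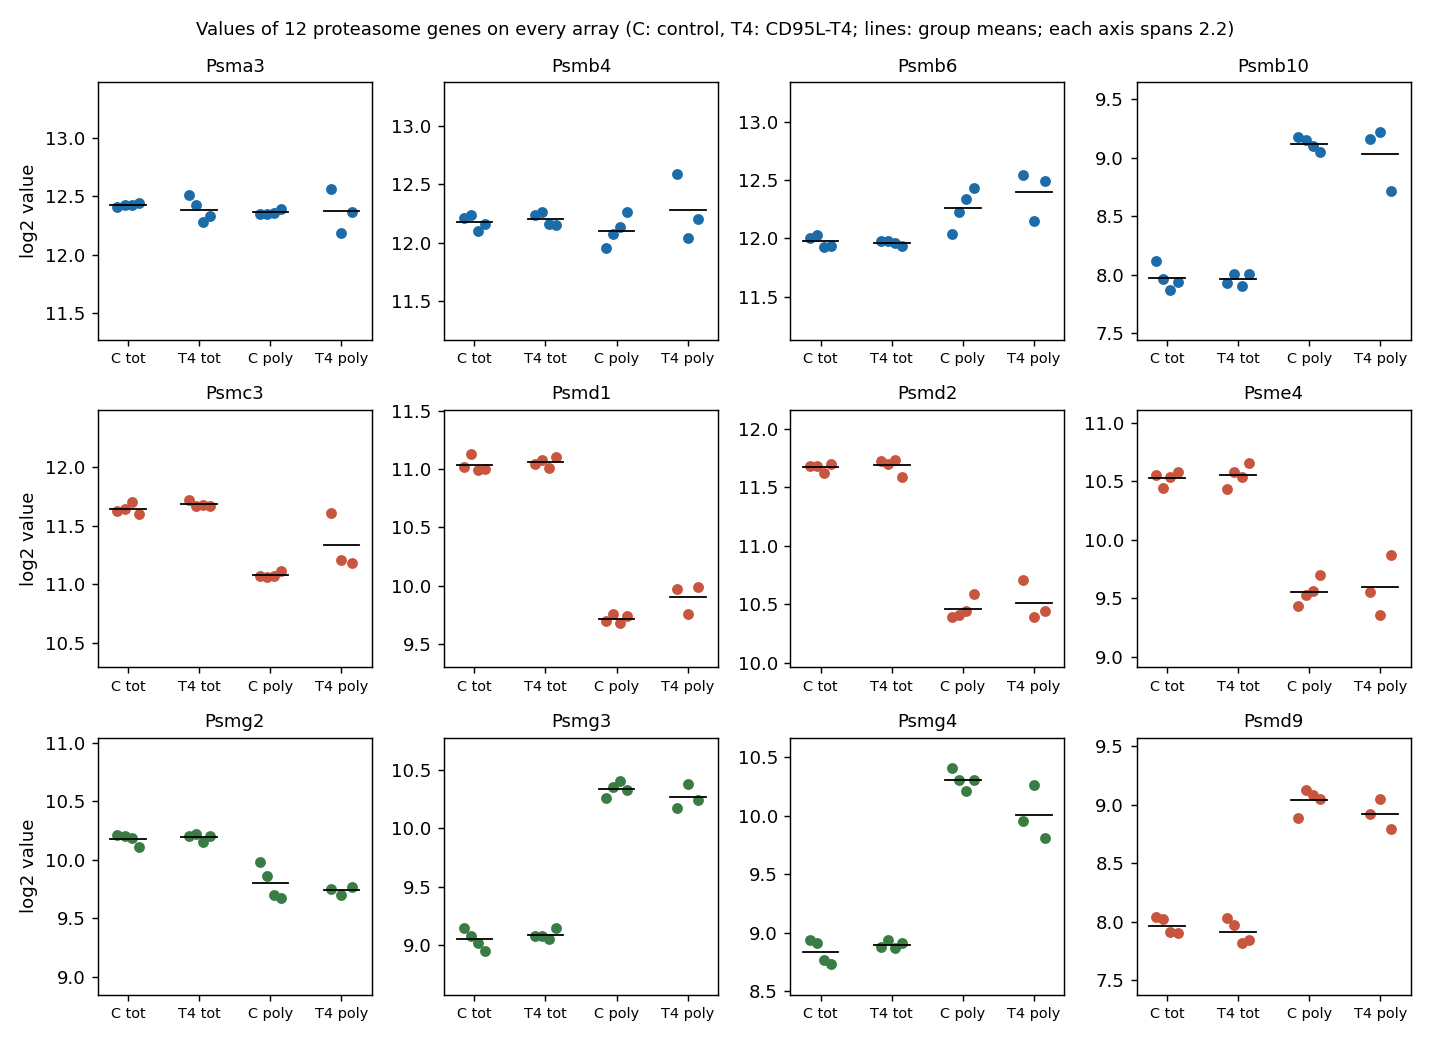
Log2 values of 12 genes on each of the 15 arrays (C, control; T4, CD95L-T4; tot, total RNA; poly, polysomal RNA), with group means as lines and every axis spanning 2.2. Psmd1, Psmd2 and Psme4 drop from total to polysomal RNA in both cultures, and Psmb10, Psmg3, Psmg4 and Psmd9 rise. The CD95L-T4 polysomal arrays spread most for every gene but Psmg2.

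In CD95L-T4 cultures, compared on separate arrays, 25 of the 48 genes passed between polysomal and total RNA, 12 higher and 13 lower (51.4% of all genes, 29.6% higher and 21.8% lower). Of the regulatory genes 12 were lower and 3 higher, and of the core genes none was lower and 5 were higher. The medians were -0.35 for regulatory and 0.07 for core genes, against 0.07 for all genes. With equal array medians the split was 17 higher and 12 lower. In both cultures 20 genes were called in the same direction, 13 lower and 7 higher, and these were 20 of the 27 control calls and 20 of the 25 CD95L-T4 calls. Among all genes 46% were called in the same direction in both, 20.1% lower and 25.9% higher, so 20 of 48 was near the background. Among them were Psmd1 (-1.15), Psmd2 (-1.17), Psme4 (-0.96), Psmb10 (1.07), Psmg3 (1.17), Psmg4 (1.11) and Psmd9 (1.01).

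Genes called in CD95L-T4 cultures alone were not shown to differ from control, since no member passed the interaction reported below. They included Psma6 (0.32, limma adjusted p = 0.0177), Psmd10 (0.43, limma adjusted p = 0.00236) and Psmg1 (0.31, limma adjusted p = 0.0174). The call of Psma6 rested on its brightest probe set alone. Its other probe sets gave 0.141, 0.127 and 0.133 (limma adjusted p = 0.329, 0.57 and 0.21). Psmb8 (0.27, limma adjusted p = 0.0146) and Psme1 (0.41, limma adjusted p = 0.0419) were also called. The 3 CD95L-T4 polysomal arrays carried unequal weight here. Without replicate 1, regulatory genes had a median of -0.52 with 17 lower, core genes had a median of -0.04, and Psma6, Psme1 (0.19) and Psmg1 (0.19) no longer passed. Without replicate 2 the Psmb8 call was lost, and without replicate 3 those of Psma6, Psmb8 and Psme1. Psme1 lost its call as well when 1 of 3 treated total arrays (replicates 1, 3 and 4), or replicate 3 of the control total group, was left out.

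Array by array, a gap between core and regulatory genes, relative to control total RNA, appeared in every polysomal sample. For each array the median deviation from the control total mean was taken over each class. The control total arrays therefore centre near 0 by construction, and their values show only the spread between them. In total RNA, core minus regulatory lay between -0.03 and 0.02 on the control arrays (-0.01 ± 0.03, SD, n = 4) and between -0.03 and 0.06 on the CD95L-T4 arrays (0.00 ± 0.04, SD, n = 4). In polysomal RNA it was 0.37, 0.54, 0.48 and 0.52 on the control arrays (0.48 ± 0.08, SD, n = 4) and 0.34, 0.41 and 0.56 on the CD95L-T4 arrays (0.44 ± 0.11, SD, n = 3). The lowest polysomal gap, 0.34, was thus well above the highest total gap, 0.06, and the 2 polysomal groups overlapped.

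Over the 7 polysomal arrays the gap spanned 0.34 to 0.56, while the core median spanned -0.20 to 0.38 and the regulatory median -0.59 to 0.04. On the control polysomal arrays the core median ran from -0.20 to 0.09 and the regulatory median from -0.59 to -0.44. On CD95L-T4 polysomal replicate 1 both classes were raised, core to 0.38 and regulatory to 0.04. On replicate 2 they read -0.15 and -0.56, and on replicate 3 they read 0.11 and -0.46. Replicate 1 was therefore the single polysomal array whose regulatory median was not below 0.

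**Figure D3:**
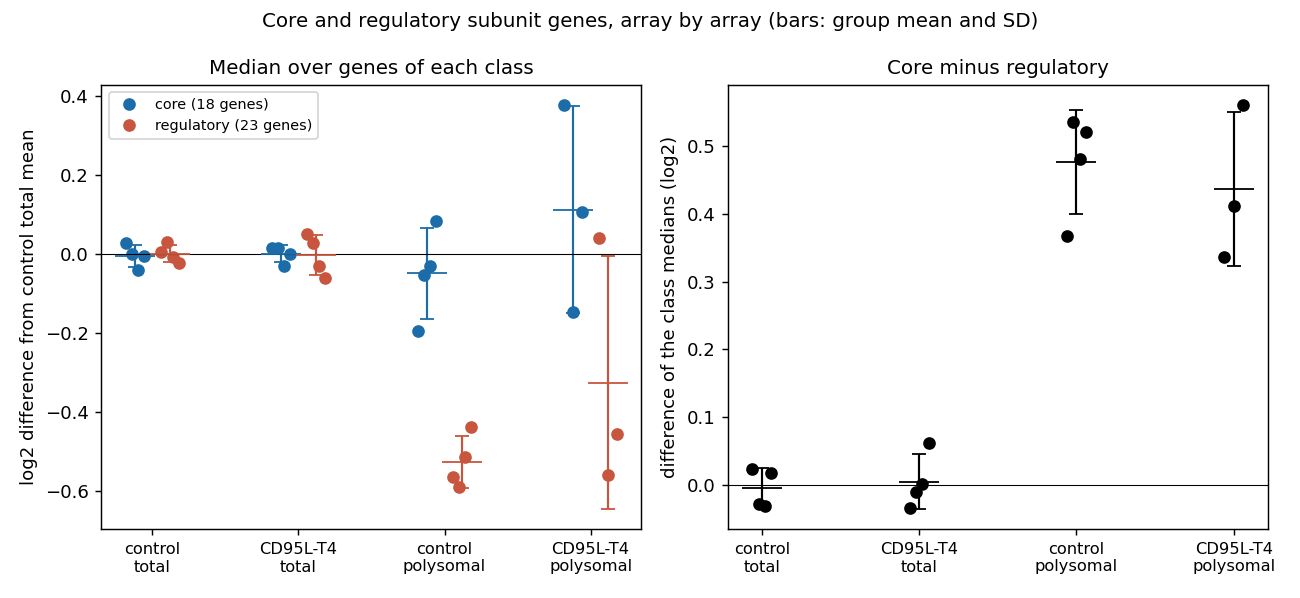
Left, median log2 deviation from the control total mean over 18 core and 23 regulatory genes on each array, and right, core minus regulatory; points are arrays and bars are group mean and SD. The gap is within 0.06 of 0 on all 8 total arrays and from 0.34 to 0.56 on all 7 polysomal arrays. The control total arrays centre near 0 by construction.

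CD95L-T4 against control in total RNA gave no call. By limma, 0 of 48 members and 0 of 12393 genes (0%) passed, with an unadjusted p below 0.05 for 3.44% of all genes. Medians were 0.00 for core and -0.02 for regulatory genes, and 25 of 48 members lay above 0, against a median of 0.02 over all genes. The members with the smallest p were Psma8 (0.24 ± 0.11), Psmc4 (-0.33 ± 0.16) and Psmd10 (-0.11 ± 0.10), each with a limma adjusted p of 0.997. Psmc4 read 11.67, 11.66, 11.11 and 10.88 with CD95L-T4 and 11.66, 11.66, 11.67 and 11.63 in control. Thus 2 of its 4 treated arrays lay far below and the other 2 were level with control, while its second probe set differed by -0.01.

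In polysomal RNA most members read higher with CD95L-T4, but none passed. By limma, 0 of 48 members and 0 of 12393 genes (0%) were called, with an unadjusted p below 0.05 for 9.49% of all genes. The median was 0.20 for core genes, with 17 of 18 above 0, and 0.17 for regulatory genes, with 22 of 23 above 0. Over all genes the median was 0.00, with 6290 of 12393 above 0. Groups did not overlap for 1 member, higher with CD95L-T4 (2.53% of all genes), and for no member that was lower (2.95% of all genes). The smallest p-values belonged to Psmg4 (-0.30 ± 0.10, limma adjusted p = 0.473), Psmc3 (0.26 ± 0.09, limma adjusted p = 0.474) and Psmb7 (0.24 ± 0.08, limma adjusted p = 0.475). Psmc3, an ATPase of the cap, read 11.61, 11.21 and 11.18 with CD95L-T4 and 11.06 to 11.11 in control. Psmb7, which carries the trypsin-like site, read 12.76, 12.41 and 12.56 against 12.21 to 12.44, so its groups overlapped. Psmg4 read 9.96, 10.26 and 9.81 against 10.21 to 10.41, also overlapping. It was 1 of 6 members below 0, with Psmg2 (-0.06), Psmg3 (-0.07), Psmb10 (-0.09), Psmd9 (-0.12) and Psmc3ip (-0.09), and the median of the 4 Psmg genes was -0.07.

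This higher level rested mainly on replicate 1. Relative to the control polysomal mean, core and regulatory medians were 0.44 and 0.51 on CD95L-T4 replicate 1, -0.08 and -0.09 on replicate 2, and 0.18 and 0.07 on replicate 3. The control arrays themselves ran from -0.17 to 0.15 for core genes, so replicates 2 and 3 were near or within the control range. Replicate 1 exceeded all 4 control arrays for 39 of 48 members, against 26.8% of all genes. Replicate 2 did so for 7 members (20.5% of all genes) and replicate 3 for 24 (27.5% of all genes). Without replicate 1 the core median was 0.06, the regulatory median 0.00 and 31 of 48 members lay above 0, with no call.

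Without replicate 2, on the other hand, 9 members passed in polysomal RNA, 8 higher and 1 lower, against 6.37% of all genes (3.08% higher). They were the alpha subunits Psma2 (0.37), Psma5 (0.47) and Psma6 (0.35), the beta subunit Psmb7 (0.32), the cap subunits Psmd1 (0.26), Psmd11 (0.36) and Psmd14 (0.45), the activator Psme1 (0.57) and, lower, the chaperone Psmg4 (-0.43, limma adjusted p = 0.0122). The CD95L-T4 polysomal arrays also differed in quality measures. The 3' minus 5' actin signal, which grows as RNA is degraded, was 0.59, 0.68 and 1.03 on replicates 1, 2 and 3, against 0.74 to 0.81 on the control polysomal arrays. Spiked polyA control transcripts averaged 8.18, 9.86 and 8.32, against 8.45 to 9.03. The overall separation of polysomal from total RNA had a slope of 0.90, 1.03 and 0.96, against 0.99 to 1.07. Replicate 1 was thus the lowest of the 7 polysomal arrays in all 3 measures, replicate 2 the highest in the spiked controls and replicate 3 the highest in the actin signal, and the part of the actin and spiked control signals in these results was not tested. With all polysomal arrays scaled to equal separation, the CD95L-T4 medians were 0.22 for core and 0.16 for regulatory genes.

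**Figure D4:**
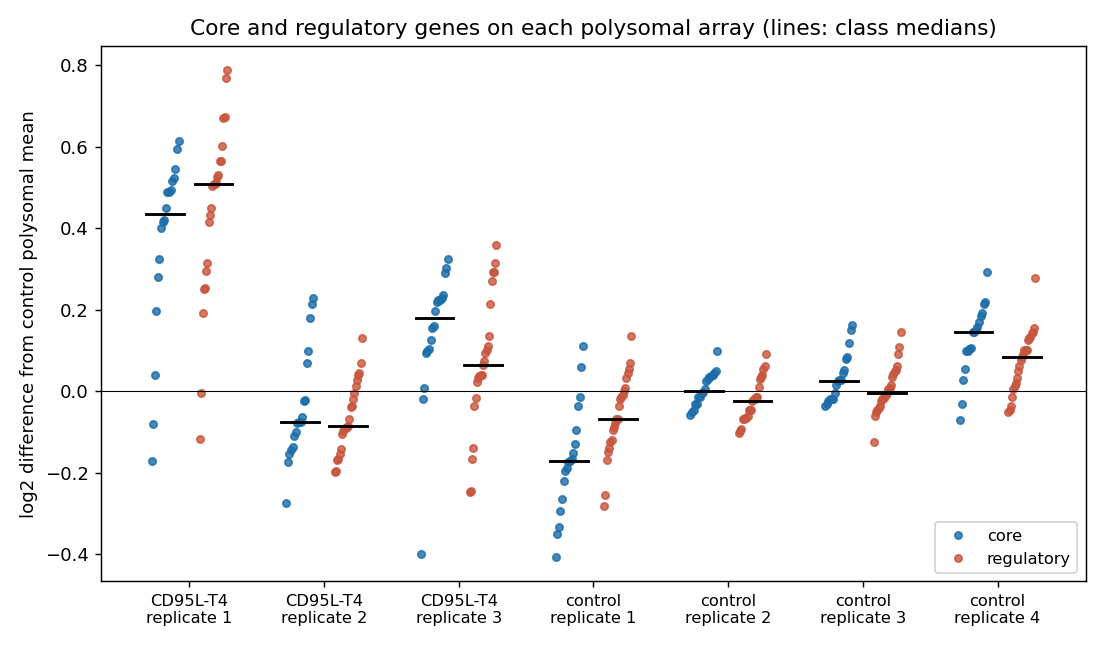
Log2 deviation of each core and regulatory gene from the control polysomal mean on the 7 polysomal arrays, with class medians as lines. Both classes sit high on CD95L-T4 replicate 1 (medians 0.44 and 0.51), slightly low on replicate 2 and between them on replicate 3.

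The CD95L-T4 difference did not separate the classes. Core minus regulatory was 0.01 in total RNA and 0.04 in polysomal RNA, next to an SD between arrays of 0.07. That SD was pooled over the 4 groups. In total RNA it was 0.03 in control and 0.04 in CD95L-T4 samples, and in polysomal RNA 0.08 and 0.11. The interaction, which is the CD95L-T4 difference in polysomal minus that in total RNA, was called by limma for 0 members and 0 genes (0%), with an unadjusted p below 0.05 for 3.99% of all genes. Its median was 0.16 for core and 0.18 for regulatory genes, against -0.015 over all genes. Without CD95L-T4 polysomal replicate 1 the core median was 0.05 and the regulatory median 0.03. With all arrays, the smallest p-values were those of Psmg4 (-0.36 ± 0.13), Psmc4 (0.48 ± 0.24) and Psmd10 (0.29 ± 0.14), each with a limma adjusted p of 0.897.

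Other genes of the pathway were read from lists written for this family. Of 9 measured assembly and regulation partners, 3 were higher and 3 lower in control polysomal RNA by limma (33.5% and 23.2% of all genes), with a median of -0.21. Sem1, given above with the cap, was among the higher ones. Pomp, which matures the core particle, was higher: 11.69 to 11.78 in total and 12.35 to 12.49 in polysomal RNA (0.69 ± 0.06, limma adjusted p = 5.87e-08). Usp14, a deubiquitinase that docks on Psmd2, was lower: 10.51 to 10.63 in total and 9.97 to 10.09 in polysomal RNA (-0.55 ± 0.08, limma adjusted p = 1.96e-05). Uchl5, the other cap-bound deubiquitinase, did not pass (-0.14 ± 0.11). Of 10 measured genes of substrate delivery and unfolding, 8 were lower and 1 higher (23.2% and 33.5% of all genes), with a median of -0.67. Vcp, the segregase that extracts ubiquitinated proteins, led these with 12.26 to 12.38 in total and 10.66 to 10.86 in polysomal RNA (-1.60 ± 0.08, 3.04-fold, limma adjusted p = 1.15e-10). Ubqln4, a ubiquitin shuttle, was the one that was higher (0.44).

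Of 6 measured transcription regulators of the family, 4 were higher and 1 lower in control polysomal RNA (33.5% and 23.2% of all genes). The lower one was Nfe2l1 itself, with 9.80 to 10.06 in total and 8.82 to 8.99 in polysomal RNA (-1.05 ± 0.10, 2.07-fold, limma adjusted p = 8.52e-08). Its relative Nfe2l2, the oxidative stress regulator, was higher by 0.27. None of these list genes was called by limma for CD95L-T4 in either fraction. Nfe2l1 differed by 0.03 ± 0.10 in total RNA and by -0.05 ± 0.11 in polysomal RNA with CD95L-T4.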

How the data were processed

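RNA of mouse neural stem cell cultures was measured on 15 Affymetrix arrays in 4 groups. The authors' deposited table holds log2 values for 22690 probe sets; from the values they look scaled between arrays, and the normalization method is not given in the sources used here. Of these, 64 are controls of the array maker and were not tested. Sample titles gave the groups, since the treatment field of treated samples holds a cell name and no agent. Probe sets were named from the platform's gene table. A gene was represented by its brightest probe set (highest mean over all arrays), and no fold was taken between probe sets. Percentiles rank a probe set's mean among all tested and are a rough guide to brightness. All arrays were fitted together in limma 3.58.1 (R 4.3.3), with a mean for each group, empirical Bayes moderation, two-sided tests and Benjamini-Hochberg adjustment over 22626 probe sets. Members, classes and lists were chosen with earlier results of these data known. The genes described in full were the 4 core and 4 regulatory genes with the largest fraction difference, the 2 of each nearest 0, the 3 smallest p-values per CD95L-T4 contrast, and the immunoproteasome, activator, inhibitor and chaperone genes. Other genes named as examples were chosen after their values were seen. The fit was tested on simulated data. Alternatives were other scalings, filters on dim probe sets, fits of the compared groups alone, variance models, array weights, replicate blocks, other probe sets or class definitions, and leaving out each array. The number of arrays limits the precision. Replicate numbers were not taken to pair the samples: in none of the 4 pairs of groups compared did every same-numbered pair of arrays correlate above 0.1 in its deviations from the group means.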

Additional observations from a re-analysis of the deposited data

Results flagged for a closer look

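Of 99 sets of group values, 3 held a sample far from the others of its group of 4. The limit was the 95% limit of Dixon's test, which chance passes for about 1 in 20 groups. The 99 sets covered the genes described in full, the core and regulatory medians, and the difference of these medians. They came from the groups of 4 arrays. The CD95L-T4 polysomal group, with 3 arrays, was too small for the limits used and was not screened. Psmb9 read 5.74 on control polysomal replicate 1 and 6.19 to 6.24 on the other control polysomal arrays. Psmb8 read 4.46 on the same array and 4.30 to 4.32 on the others. Psmd5 read 9.90 on control total replicate 2 and 9.79 to 9.80 on the other control total arrays.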

How the results depend on the processing

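Of the fraction counts and gaps, core minus regulatory in control cultures fell from 0.46 to 0.38 with quantile normalization over all arrays. Core genes called lower there numbered 3, but 0 with equal array medians and 5 with array weights. Leaving out each array in turn gave 0 to 4 core genes called lower in control cultures (0 without control polysomal replicate 1) and 0 to 1 in CD95L-T4 cultures. It gave 0 to 9 members called for CD95L-T4 in polysomal RNA (9 without CD95L-T4 replicate 2). Core minus regulatory for CD95L-T4 in polysomal RNA ran from -0.05 (without control polysomal replicate 1) to 0.06. The gap ran from 0.44 to 0.50 in control and from 0.38 to 0.48 in CD95L-T4 cultures. No other count or gap changed its call or moved by over 1.5 times or 1 SD. Same-numbered arrays correlated at -0.07 to 0.07 between the control fractions, -0.20 to 0.20 between the CD95L-T4 fractions, -0.23 to 0.17 between treatments in total RNA and -0.13 to 0.12 in polysomal RNA. Between CD95L-T4 total and control polysomal arrays, which were not compared, all 4 correlated at 0.14 to 0.22. With the replicate number as a block, 27 members were called between fractions in control and 24 in CD95L-T4 cultures, and 0 in each CD95L-T4 comparison. The block within fraction was run for the CD95L-T4 comparisons alone, since it is nested in fraction, and called 0 members. The fit of the compared groups alone was not run for the interaction, which needs all 4 groups. Psma1 and Psma4 lost their control calls with equal array medians (limma adjusted p = 0.0936 and 0.0755), while Psmb8 (0.0185), Psmd8 (0.0378) and Psmd10 (0.0402) then passed as higher. Among single genes, Psme1 lost its CD95L-T4 fraction call with the compared groups alone (limma adjusted p = 0.0778; Psmb8 too, 0.0649) and with the block (limma adjusted p of Psme1, 0.0581). Probe sets at low signal limit what can be said of Psma8, Psmb8 and Psmb9.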

Other observations

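The 2 probe sets of Psmd6, and those of Psmc4, parted on CD95L-T4 total replicate 3. On CD95L-T4 total replicate 4 they all lay below the control total arrays, by unlike amounts. On CD95L-T4 total replicates 3 and 4, Psmd6, a lid subunit, read 11.10 and 11.22 with its brightest probe set, against 11.49 to 11.53 in control, while its second probe set read 11.58 and 11.43 against 11.54 to 11.62. For Psmc4 the brightest probe set read 11.11 and 10.88 on these arrays, against 11.63 to 11.67 in control, and the second read 10.63 and 10.42 against 10.54 to 10.59. On each of these arrays 16 of 48 members lay below all 4 control total arrays, against 23.9% and 20.8% of all genes, while on CD95L-T4 total replicates 1 and 2 the counts were 4 and 5 members, against 20.3% and 18.4% of all genes. These genes and arrays were chosen after their values were seen, and no test was made.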
